A study of Rattus norvegicus with 12 samples.

Results

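Reactive oxygen species in the heart are made by NADPH oxidases and removed by antioxidant enzymes, and this account follows the transcripts of Rac1, the NADPH oxidase subunits Nox4, Cybb, Cyba, Ncf1 and Ncf4, and the antioxidant enzymes Sod1, Sod2, Sod3 and Cat in left atrial RNA of hypertensive rats. The genes were chosen by symbol, and all 10 were found among the 21239 genes with counts. Each of 12 male rats gave 1 library, and 4 groups of 3 were formed. Wistar-Kyoto rats, the normotensive control strain, formed the WKY group, and spontaneously hypertensive rats, an inbred strain that becomes hypertensive with age, formed the SHR group; both received saline (7.5 mL/kg/day) for 4 weeks. Spontaneously hypertensive rats of the ARB group received valsartan, an angiotensin receptor blocker, at 30 mg/kg/day for 4 weeks. Those of the ARNI group received sacubitril/valsartan, in which sacubitril blocks the peptidase neprilysin, at 60 mg/kg/day for 4 weeks. Hypertension and genetic background cannot be told apart in the comparison of SHR with WKY, since the model is a strain.

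In the titles of all 6 saline libraries, the strain given in words is the opposite of the one in the library name beside it, and the strain field of the 6 ARB and ARNI libraries names Wistar-Kyoto. Libraries were grouped by name, and each direction between SHR and WKY rests on those names. Transcripts of Cd36, a fatty acid transporter gene that is defective in the spontaneously hypertensive strain, stood at 1382 to 1584 CPM (estimated counts scaled to a library total of 1000000) in the libraries named WKY and at 63.6 to 285 CPM in the other 9. Total counts ranged from 11252361 to 15823525 per library.

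The markers of the atrium did not hold in every library. Myl7 and Sln, genes of atrial cardiomyocytes, were at 0.889 to 15.9 and 0.261 to 0.444 CPM in the 3 WKY libraries and at 9.67 and 1.57 CPM in ARNI replicate 2. The same 4 libraries held Myl2, the regulatory myosin light chain of the ventricle, at 3489 to 4161 CPM. They were not alike in every ventricular marker. Myh7 was at 32130 to 32740 CPM in WKY and at 5907 CPM in ARNI replicate 2, while Myl3, Irx4 and Hey2 were near the WKY values there. SHR replicate 2 and ARB replicate 3 held both kinds of marker, with Myl2 at 2298 and 2573 CPM beside Myl7 at 4478 and 5144 CPM. In the other 6 libraries Myl2 was at 0.136 to 24.2 CPM, Myh7 at 357 to 763 CPM and Myl7 at 7568 to 11550 CPM. Strain and chamber markers therefore cannot be told apart in the comparison of SHR with WKY. A chamber score, the mean log2 CPM of 6 atrial markers less that of 5 ventricular markers, was -9.55 to -9.28 in WKY, 1.89 to 10.17 in SHR, 2.13 to 9.74 in ARB, and 9.67, -7.30 and 7.12 in ARNI replicates 1, 2 and 3. No library of a hypertensive rat scored within the WKY range, and only ARNI replicate 2 came near it. Strain and score thus nearly coincide. A fit with both rests on ARNI replicate 2 or extrapolates, and it cannot separate strain from chamber markers. Values of ARNI replicate 2, a library of a treated hypertensive rat with ventricular markers, are given beside those of WKY below.

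As background, the phagocyte NADPH oxidase is a complex that moves an electron from NADPH to oxygen and so makes superoxide. Its membrane part is formed by NOX2 (Cybb) and p22phox (Cyba), and it is switched on when its cytosolic subunits, p47phox (Ncf1) and p40phox (Ncf4) among them, and GTP-bound Rac come from the cytosol. NOX4 also pairs with p22phox but needs neither the cytosolic subunits nor Rac, and it releases mainly hydrogen peroxide. Superoxide dismutases turn superoxide into hydrogen peroxide in the cytosol (Sod1), the mitochondrial matrix (Sod2) and the extracellular space (Sod3), and catalase (Cat), a peroxisomal enzyme, breaks hydrogen peroxide down. Angiotensin II is known to activate these oxidases in cardiovascular cells.

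In CPM, every WKY library lay on the same side of all 9 libraries of hypertensive rats in 4 of the 10 genes. They were Ncf1, Sod2 and Cat, which were highest in WKY, and Sod1, which was lowest there. For Sod1 this depended on scaling by library totals. Such a separation was found in 16.4% of the 14453 genes kept over all 12 libraries. The stretches of RefSeq sequence around the transcription starts of these 4 genes (rat build GRCr8, 250 bases before to 50 after the start, on the strand of the gene) are shown because these are the members whose levels separate the WKY libraries from the other 9. Strain and chamber markers cannot be told apart in that separation. Entries were matched for 7 of the 10 genes. Capitals mark letters of the antioxidant response element, searched as TGACNNNGC on both strands and held by 12.1% of 33469 such stretches, or of the core bound by the myeloid factor PU.1, searched as GAGGAA on both strands and held by 27.6%. The matches do not overlap each other.
Ncf1, chr12:28121635-28121934, plus strand: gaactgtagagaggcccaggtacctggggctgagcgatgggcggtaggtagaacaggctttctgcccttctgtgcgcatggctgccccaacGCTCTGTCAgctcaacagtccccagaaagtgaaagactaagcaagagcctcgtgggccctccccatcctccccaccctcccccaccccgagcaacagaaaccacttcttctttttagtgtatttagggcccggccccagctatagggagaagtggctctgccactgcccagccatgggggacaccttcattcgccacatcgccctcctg
Sod2, chr1:50050119-50050418, minus strand: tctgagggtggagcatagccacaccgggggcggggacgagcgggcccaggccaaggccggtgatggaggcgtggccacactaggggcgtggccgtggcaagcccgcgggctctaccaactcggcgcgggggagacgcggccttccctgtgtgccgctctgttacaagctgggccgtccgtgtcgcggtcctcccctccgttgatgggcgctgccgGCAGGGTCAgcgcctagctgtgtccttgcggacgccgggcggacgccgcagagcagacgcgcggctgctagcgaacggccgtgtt
Cat, chr3:110329477-110329776, minus strand: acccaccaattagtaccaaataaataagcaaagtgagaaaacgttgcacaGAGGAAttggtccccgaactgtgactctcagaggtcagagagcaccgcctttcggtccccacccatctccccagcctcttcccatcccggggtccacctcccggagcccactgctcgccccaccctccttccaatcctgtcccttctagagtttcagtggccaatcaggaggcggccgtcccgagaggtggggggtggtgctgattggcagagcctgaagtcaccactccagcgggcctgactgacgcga
Sod1, chr11:42942573-42942872, plus strand: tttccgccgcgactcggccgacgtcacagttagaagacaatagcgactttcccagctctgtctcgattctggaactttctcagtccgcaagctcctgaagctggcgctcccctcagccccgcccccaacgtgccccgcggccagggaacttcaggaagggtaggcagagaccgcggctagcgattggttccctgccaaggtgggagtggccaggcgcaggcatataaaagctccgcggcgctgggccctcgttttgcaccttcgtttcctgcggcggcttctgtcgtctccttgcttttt
The letters of the antioxidant response element, on the reverse strand, begin 159 bases before the start of Ncf1 and 35 bases before that of Sod2. Those of the PU.1 core begin 200 bases before the start of Cat. The stretch of Sod1 holds neither, and its letters are all in lower case. A match of letters is a description of the sequence and not a bound site. The share of G and C was 59.7%, 72.0%, 59.3% and 61.3% in Ncf1, Sod2, Cat and Sod1, against a median of 51.7% over all stretches.

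**Figure D1:**
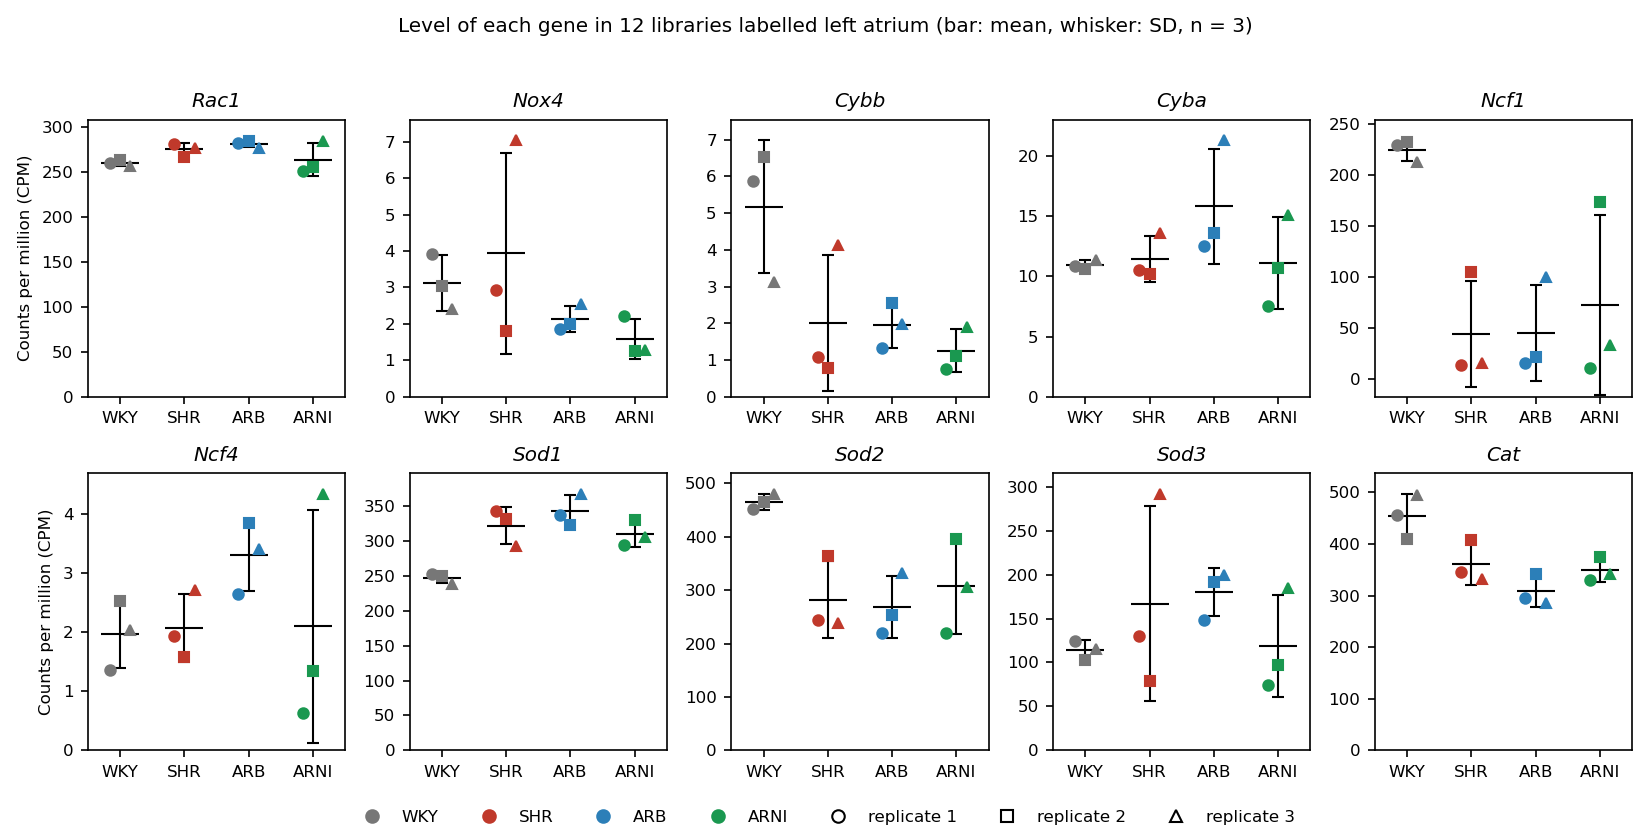
Level of each of the 10 genes in CPM (vertical axis, from 0 or below where a whisker reaches there) in the 3 libraries of each group, with the mean and SD (n = 3). Rac1 stayed between 251.5 and 285 CPM, while Ncf1 ran from 10.2 to 232 CPM and its SHR, ARB and ARNI replicates lay far apart.

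Between SHR and WKY, 1 of the 10 genes passed the test, against 20.6% of the 13794 genes tested. It was Sod2, which was lower in SHR, as were 8.26% of all genes tested. Tests were edgeR quasi-likelihood tests on the 6 libraries of a pair, adjusted by Benjamini-Hochberg over all genes tested, and a gene passed at an adjusted p of at most 0.05. Unadjusted p-values were under 0.05 for 4 of the 10 (Ncf1, Cybb, Sod2 and Cat) and for 5428 of the 13794 genes tested. The median log2 fold change was -0.07 over the 10 genes and 0.01 over all genes. In CPM the SHR and WKY groups did not overlap for 5 of the 10, which is the case for 49.6% of the genes tested. When a change of at least 1 on the log2 scale was required as well, 0 of the 10 and 8.89% of all genes passed.

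Rac1, the GTPase that switches NOX2 on, was the steadiest of the 10 genes. Its level was 260.3, 263 and 257 CPM in the WKY replicates, 282, 267 and 277 CPM in the SHR replicates, 282, 285 and 277 CPM in the ARB replicates, and 251.5, 255.5 and 285 CPM in the ARNI replicates. The highest library was 1.13 times the lowest. Of 13977 genes with reads in all 12 libraries, 10 had a smaller ratio, and the median ratio was 2.09. ARNI replicate 2, at 255.5 CPM, stood just below the WKY range when scaled by library totals. The SHR replicates were all above the WKY replicates in CPM, yet the fitted fold of SHR over WKY was 0.964 (95% interval 0.826 to 1.12, adjusted p = 0.697), because the fit scales libraries by TMM (trimmed mean of M values) and not by their totals. With library totals alone the log2 fold change was 0.08, so its sign depends on the scaling. The fold was 1.05 (0.843 to 1.3) for ARB over SHR, 1.01 (0.815 to 1.26) for ARNI over SHR and 0.975 (0.769 to 1.24) for ARNI over ARB, and none of the 4 comparisons passed. These intervals leave room for a change of up to about 1.3-fold in RNA, and RNA levels do not report how much Rac1 carries GTP.

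Nox4 and Cybb, the catalytic subunits, were measured with few reads, 16 to 104 per library for Nox4 and 10 to 75 for Cybb. Nox4 stood at 3.92, 3.04 and 2.40 CPM in WKY, 2.94, 1.81 and 7.05 CPM in SHR, 1.85, 1.99 and 2.54 CPM in ARB, and 2.21, 1.26 and 1.29 CPM in ARNI. SHR replicate 3 was the highest of the 12 libraries and the other SHR replicates lay within the range of the other groups. Fitted as SHR over WKY, the log2 fold change was 0.17 ± 0.47 (SE, adjusted p = 0.809), and without SHR replicate 3 it was -0.48. Markers of fibroblasts, which also express Nox4, had their highest sum in that same library, 4877 CPM over 7 genes against 1274 to 3281 CPM in the other 11. Of the 7, Pdgfra was highest in WKY replicate 1 and Tcf21 in ARB replicate 3, and the part of these markers in the value was not tested. Nox4 in ARNI replicate 2 was 1.26 CPM, the lowest of all libraries and below the 3 WKY values.

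Cybb stood at 5.88, 6.52 and 3.11 CPM in WKY and at 1.07, 0.788 and 4.13 CPM in SHR. Its levels were 1.32, 2.54 and 1.98 CPM in ARB and 0.758, 1.1 and 1.90 CPM in ARNI. All but 1 library of the hypertensive rats lay below every WKY library, the exception being SHR replicate 3, which lay above WKY replicate 3. Fitted as SHR over WKY, the log2 fold change was -1.52 ± 0.61, and it missed the threshold (adjusted p = 0.113, and 0.0182 to 0.484 over the alternatives). Without SHR replicate 3 it was -2.55 with an adjusted p of 0.0182, so that 1 library decides the call. When all 9 libraries of hypertensive rats were set against WKY, the log2 fold change was -1.72 ± 0.43 (adjusted p = 0.0229), a comparison chosen after the data were seen in which 3 of the 10 genes passed (Cybb, Sod2 and Cat) against 19.8% of all genes. With the chamber score in that fit it was -1.90 ± 0.93 (adjusted p = 0.251), and 0 of the 10 genes passed against 1.99% of all genes. ARNI replicate 2, whose ventricular markers other than Myh7 were near those of WKY, held Cybb at 1.1 CPM (14 reads), or 0.213 of the WKY mean. Its 9 macrophage markers summed to 108 CPM, below the 180 to 258 CPM of WKY. The part of these markers in its Cybb level was not tested.

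Cyba, the shared membrane partner, stood at 10.8, 10.6 and 11.4 CPM in WKY, 10.5, 10.2 and 13.6 CPM in SHR, 12.5, 13.6 and 21.3 CPM in ARB, and 7.52, 10.7 and 15.1 CPM in ARNI. The SHR and WKY values overlapped, with a log2 fold change of -0.08 ± 0.13 (adjusted p = 0.692). That sign turned with library totals alone (0.06). ARNI replicate 2 lay within the WKY range. Cyba was highest in ARB replicate 3 and lowest in ARNI replicate 1, which had the highest and the lowest sum of 9 macrophage markers. Of these markers, C1qa, C1qb, C1qc and Aif1 were highest in ARB replicate 3 and the other 5 in other libraries, while all 9 were lowest in ARNI replicate 1.

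The cytosolic subunit gene Ncf1 varied most. It stood at 230.1, 232 and 212 CPM in WKY, at 13.0, 104 and 15.1 CPM in SHR, at 15.1, 20.8 and 99.5 CPM in ARB, and at 10.2, 174 and 33.1 CPM in ARNI. Ncf1 was at 10.2 to 33.1 CPM in the 6 libraries with mainly atrial markers. It was at 99.5 and 104 CPM in ARB replicate 3 and SHR replicate 2, which held both kinds of marker. In ARNI replicate 2 it was at 174 CPM. Fitted as SHR over WKY, the log2 fold change was -2.44 ± 0.84 (95% interval -4.43 to -0.44), and it missed the threshold (adjusted p = 0.0799, and 1.22e-05 to 0.239 over the alternatives). It was -4.17 without SHR replicate 2 (adjusted p = 1.22e-05), and DESeq2 called it (adjusted p = 0.0405). With the chamber score in a fit of all 12 libraries the value turned to 1.42 (adjusted p = 0.239). Ncf1 was below 0 on this scale in every fit run without the chamber score and above 0 in the 3 fits with it. Since strain and score nearly coincide, the fits with the score cannot separate the 2.

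Estimated counts of Ncf1 were not whole in any of the 12 libraries, which means that some reads were shared with other genes by the authors' estimate, and its values are uncertain to that extent, as are those of Cat and Sod3, which were not whole in 12 and 11 libraries. In the rat gene table its neighbours are Gtf2i and Gtf2ird2, which were at 156 to 212 and 9.31 to 17.5 CPM in the 12 libraries and did not follow its order. Ncf4, the gene of another cytosolic subunit, rested on 10 to 64 reads per library. It stood at 1.36, 2.52 and 2.04 CPM in WKY, 1.94, 1.58 and 2.71 CPM in SHR, 2.65, 3.85 and 3.41 CPM in ARB, and 0.632, 1.34 and 4.34 CPM in ARNI. SHR and WKY overlapped (log2 fold change -0.07 ± 0.32, adjusted p = 0.886), and with library totals alone the value was 0.07.

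**Figure D2:**
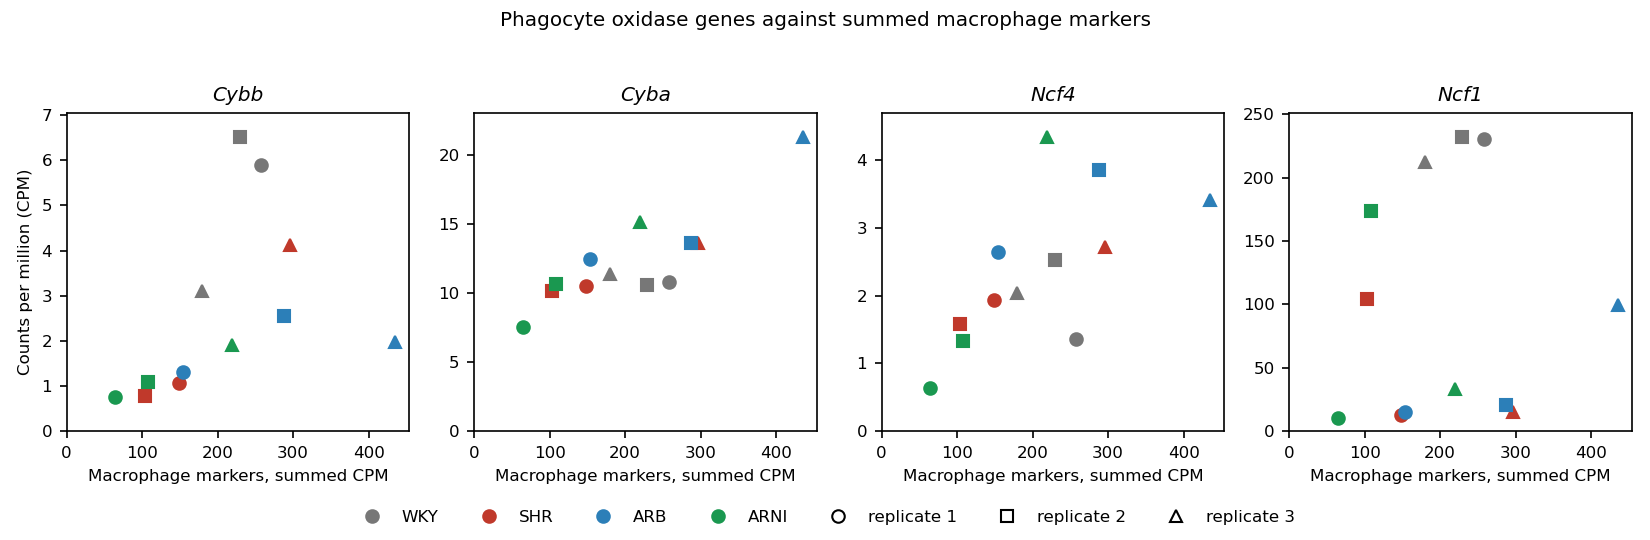
Levels of 4 genes of the phagocyte oxidase in CPM (vertical axes) against the summed CPM of 9 macrophage markers (horizontal axes) in the 12 libraries. Cyba lies low in ARNI replicate 1 and high in ARB replicate 3, at the ends of the marker range, and Ncf1 shows no such order.

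Macrophages carry the phagocyte oxidase, so their markers are given beside these genes. The 9 markers (Cd68, Csf1r, C1qa and others) were above 0 in every library and summed to 180 to 258 CPM in WKY, 103 to 296 CPM in SHR, 154 to 436 CPM in ARB and 64.5 to 219 CPM in ARNI. Single markers differed in order from the sum. Mrc1 was at 21.5 to 26.2 CPM in WKY and at 3.79 to 20.7 CPM in the 9 libraries of hypertensive rats, so every WKY library was above the other 9. Cd163 was at 24.1 to 35.9 CPM in WKY and at 9.42 to 22.0 CPM in SHR. It was at 9.39 to 29.2 CPM in ARB, which overlapped WKY, and at 6.825 to 22.4 CPM in ARNI. Each of the other markers overlapped between WKY and SHR. C1qa, for example, was at 27.0 to 38.4 CPM in WKY, 19.0 to 52.9 CPM in SHR and 30.8 to 92.75 CPM in ARB. In bulk RNA, fewer cells of a type and less RNA per cell cannot be told apart. The 5 neutrophil markers summed to at most 9.62 CPM, with Mpo and Cxcr2 at 0 in some libraries. ARNI replicate 1, the library with the lowest sum of macrophage markers, was also the lowest in Cybb, Cyba, Ncf1 and Ncf4. It was the lowest in Rac1 and Sod3 as well, so this was not particular to the phagocyte oxidase genes. The part of macrophage content in the differences between groups was not tested. Of the other oxidase subunits in a list of 10 (among them Nox1, Noxo1 and the Duox genes), 3 had enough reads to be tested, and 0 of them passed in the 4 comparisons. Duox1 passed when all 9 libraries of hypertensive rats were set against WKY (-1.46 ± 0.41, adjusted p = 0.0351) and when SHR replicate 3 was left out. Its values rested on only 2.31 to 14.8 estimated reads per library.

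Sod2, the mitochondrial superoxide dismutase, was the gene that passed. It stood at 451, 464 and 480.3 CPM in WKY, at 244, 365 and 239 CPM in SHR, at 219, 254 and 333 CPM in ARB, and at 219, 396 and 306 CPM in ARNI. No library of a hypertensive rat reached the lowest WKY library. The fold of SHR over WKY was 0.557 (95% interval 0.39 to 0.796), a log2 fold change of -0.84 ± 0.22 (adjusted p = 0.0389). The call was lost when WKY replicate 1, 2 or 3 or SHR replicate 1 or 3 was left out, with adjusted p-values of 0.0655 to 0.126, and it stayed without SHR replicate 2 (-1.12, adjusted p = 0.000476). With the chamber score in a fit of all 12 libraries the value was 0.17 (adjusted p = 0.673), and its sign turned.

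As for Ncf1, the highest values of Sod2 among hypertensive rats were those of ARNI replicate 2, SHR replicate 2 and ARB replicate 3. In the 6 libraries with mainly atrial markers Sod2 was at 219 to 306 CPM. Transcripts of 10 mitochondrial proteins, most of them of the citrate cycle and respiratory chain, summed to 17150 to 17950 CPM in WKY, to 11110, 16910 and 10270 CPM in the SHR replicates, to 10900, 11070 and 16770 CPM in ARB and to 10450, 20450 and 12800 CPM in ARNI. They too were higher in the libraries with ventricular markers, and their part in the level of Sod2 was not tested.

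Cat, which encodes catalase, stood at 456, 409 and 496 CPM in WKY, 345, 407 and 332 CPM in SHR, 296, 342 and 286 CPM in ARB, and 331, 375 and 341 CPM in ARNI. Every library of a hypertensive rat lay below the lowest WKY library, though SHR replicate 2 did so by less than 2 CPM. Fitted as SHR over WKY, the log2 fold change was -0.46 ± 0.16, which missed the threshold (adjusted p = 0.0816, and 0.012 to 0.809 over the alternatives). DESeq2 called it (adjusted p = 0.0314), as did the comparison of all 9 libraries of hypertensive rats with WKY (-0.52 ± 0.12, adjusted p = 0.0194). With the chamber score in that fit the difference was -0.18 ± 0.16 (adjusted p = 0.53). ARB replicate 3, which held ventricular markers, was the lowest of all libraries, so Cat did not follow the chamber order as closely as Ncf1 and Sod2.

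**Figure D3:**
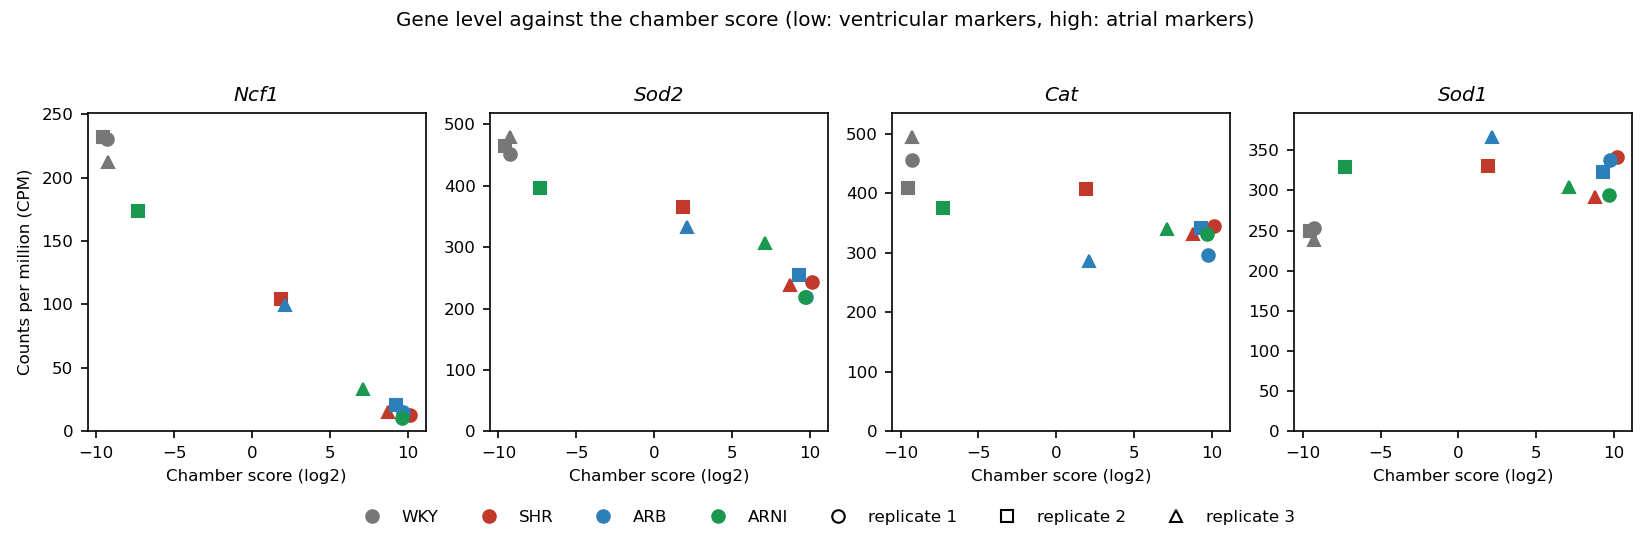
Levels in CPM (vertical axes, from 0) of Ncf1, Sod2, Cat and Sod1 against the chamber score (horizontal axes, log2 scale) in the 12 libraries. Ncf1 and Sod2 fall from the WKY libraries through ARNI replicate 2 and the 2 libraries with both kinds of marker to the other 6, while Sod1 is at 330 CPM in ARNI replicate 2 and at 238 to 253 CPM in the WKY libraries beside it.

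Sod1, the cytosolic copper and zinc enzyme, ran the other way. It stood at 253, 249 and 238 CPM in WKY, at 342, 331 and 292 CPM in SHR, at 338, 323 and 367 CPM in ARB, and at 295, 330 and 305 CPM in ARNI. All 9 libraries of hypertensive rats were above all 3 WKY libraries in CPM. This held for ARNI replicate 2 (330 CPM, or 1.34 times the WKY mean), whose ventricular markers other than Myh7 were near those of WKY. In CPM, Sod1 was the only one of the 10 genes for which ARNI replicate 2 lay above the WKY range. Of the others, 8 lay below it and Cyba lay within. CPM scales by library totals, and the TMM factor was 0.906 in ARNI replicate 2 against 0.938 to 0.957 in WKY. TMM would therefore raise ARNI replicate 2 relative to WKY, and this tally depends on the scaling for genes near the edge, such as Rac1. The separation of Sod1 between WKY and the other 9 libraries depends on the scaling too. TMM factors of 1.111 in SHR replicate 3 (292 CPM) and 0.957 in WKY replicate 1 (253 CPM) bring these libraries to about the same level. The fold of Sod1 in SHR over WKY was 1.19 (95% interval 0.971 to 1.46), a log2 fold change of 0.25 ± 0.12 that did not pass (adjusted p = 0.177, and 0.0378 to 0.369 over the alternatives). With all 9 libraries of hypertensive rats it was 0.30 ± 0.12 (adjusted p = 0.101), and with the chamber score as well it was 0.64 ± 0.15 (adjusted p = 0.0574). It passed without SHR replicate 3 (0.36, adjusted p = 0.0443) and with library totals alone (0.38, adjusted p = 0.0378). Its sign was the same in all alternatives that were run.

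Sod3, the secreted dismutase of the vessel wall and matrix, stood at 125, 103 and 115 CPM in WKY and at 130.2, 78.6 and 292 CPM in SHR. It was at 148, 192 and 199 CPM in ARB and at 74.9, 97.5 and 184 CPM in ARNI. The SHR replicates lay on both sides of WKY, and the log2 fold change of 0.38 ± 0.41 (adjusted p = 0.518) turned to -0.23 without SHR replicate 3. That library also had the highest sum of fibroblast markers and the highest Nox4.

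**Figure D4:**
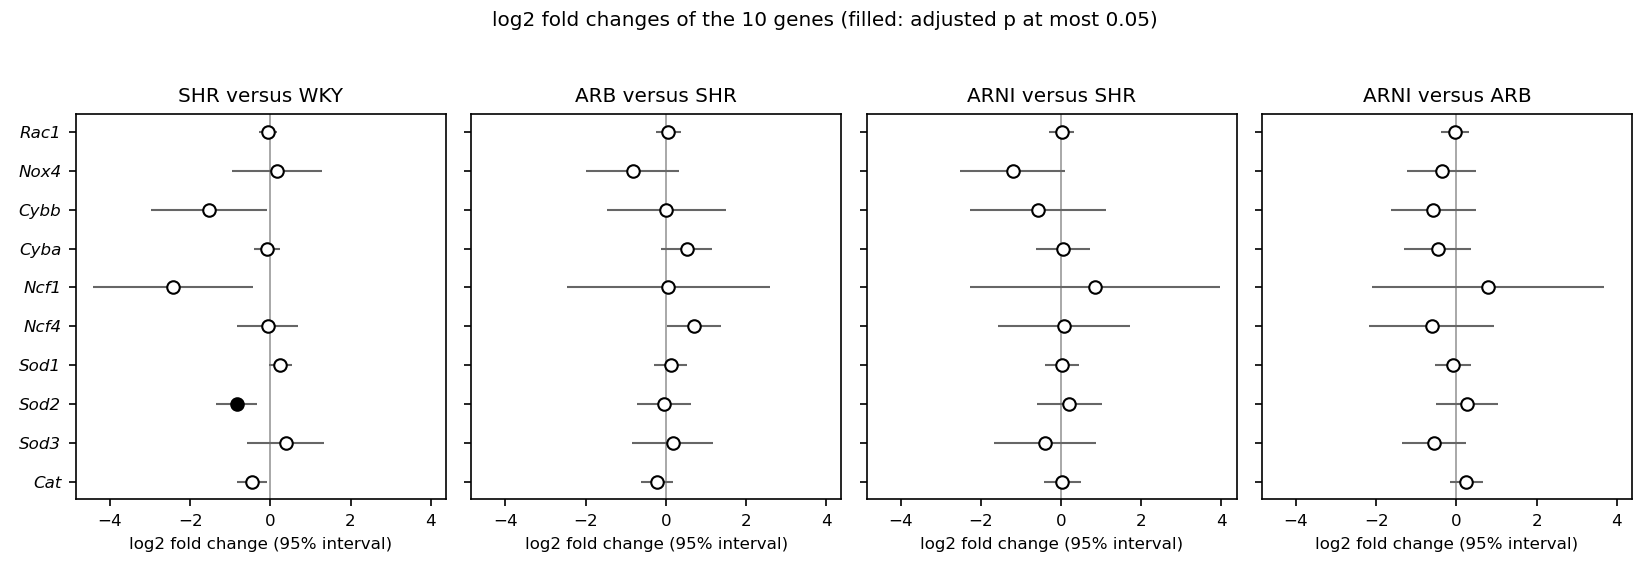
Fitted log2 fold changes of the 10 genes (points) with 95% intervals (lines) in the 4 comparisons, filled where the adjusted p was at most 0.05. The only filled point is Sod2 in SHR versus WKY at -0.84, and the interval of Rac1 is narrow around 0 in every comparison.

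Under the drugs, none of the 10 genes passed. In ARB versus SHR, 0 of the 10 genes and 0 of 13979 genes (0%) passed with edgeR, 225 genes had an unadjusted p under 0.05, and DESeq2 called 3 genes, none of them among the 10. In ARNI versus SHR, 0 of the 10 and 0 of 13956 (0%) passed, with 228 genes at an unadjusted p under 0.05 and 9 called by DESeq2. For ARNI versus ARB, whose doses differ, 0 of the 10 and 0 of 13949 (0%) passed, with 539 at an unadjusted p under 0.05 and 23 called by DESeq2. Both treated groups were compared with the same 3 SHR libraries, so those comparisons are not independent. The values of the groups overlapped for all 10 genes in each of these comparisons, where 5.39%, 6.56% and 10.5% of all genes did not overlap.

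Among the oxidase subunits, Ncf1 had log2 fold changes of 0.06 ± 1.06 in ARB over SHR, 0.85 ± 1.28 in ARNI over SHR and 0.79 ± 1.2 in ARNI over ARB, and Cybb of 0.02 ± 0.62, -0.58 ± 0.70 and -0.58 ± 0.44. Nox4 did not pass in either treated group, with a log2 fold change of -0.82 ± 0.48 in ARB and -1.21 ± 0.54 in ARNI (adjusted p = 1 and 0.999), and without SHR replicate 3 these values were -0.16 and -0.54. Ncf4 had the only unadjusted p under 0.05 among the 10 genes, in ARB versus SHR (0.70 ± 0.28, adjusted p = 1), and ARB replicate 1 lay below SHR replicate 3. Cyba had a log2 fold change of 0.52 ± 0.26 in the same comparison (adjusted p = 1), and without ARB replicate 3 it was 0.19.

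None of the 4 antioxidant enzymes passed between treated and untreated hypertensive rats. Sod1 had log2 fold changes of 0.12 ± 0.17 in ARB and 0.03 ± 0.17 in ARNI, and Cat of -0.21 ± 0.17 and 0.03 ± 0.19. Sod2 had -0.04 ± 0.28 and 0.21 ± 0.33, and the highest ARNI level was that of ARNI replicate 2, the library with ventricular markers. Between the drugs, Sod3 had a log2 fold change of -0.56 ± 0.33 in ARNI over ARB (adjusted p = 0.993). The intervals were wide for the oxidase subunits, and that of Ncf1 in ARNI versus SHR ran from -2.27 to 3.96, so these data do not show that the groups were alike.

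In the wider lists of 104 genes around these pathways, 23 of the 93 genes tested passed between SHR and WKY (24.7%), 19 higher and 4 lower, beside the 20.6% of all genes. None of the 93 passed in the drug comparisons with edgeR, where 2, 2 and 6 of them had an unadjusted p under 0.05 in ARB versus SHR, ARNI versus SHR and ARNI versus ARB. The count between SHR and WKY was 5 without WKY replicate 1, 2 or 3, 10 without SHR replicate 1, 47 without SHR replicate 2, 21 without SHR replicate 3 and 8 with the replicate number as a block (the replicate block), and it was 0 of 94 with the chamber score in a fit of all 12 libraries.

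**Figure D5:**
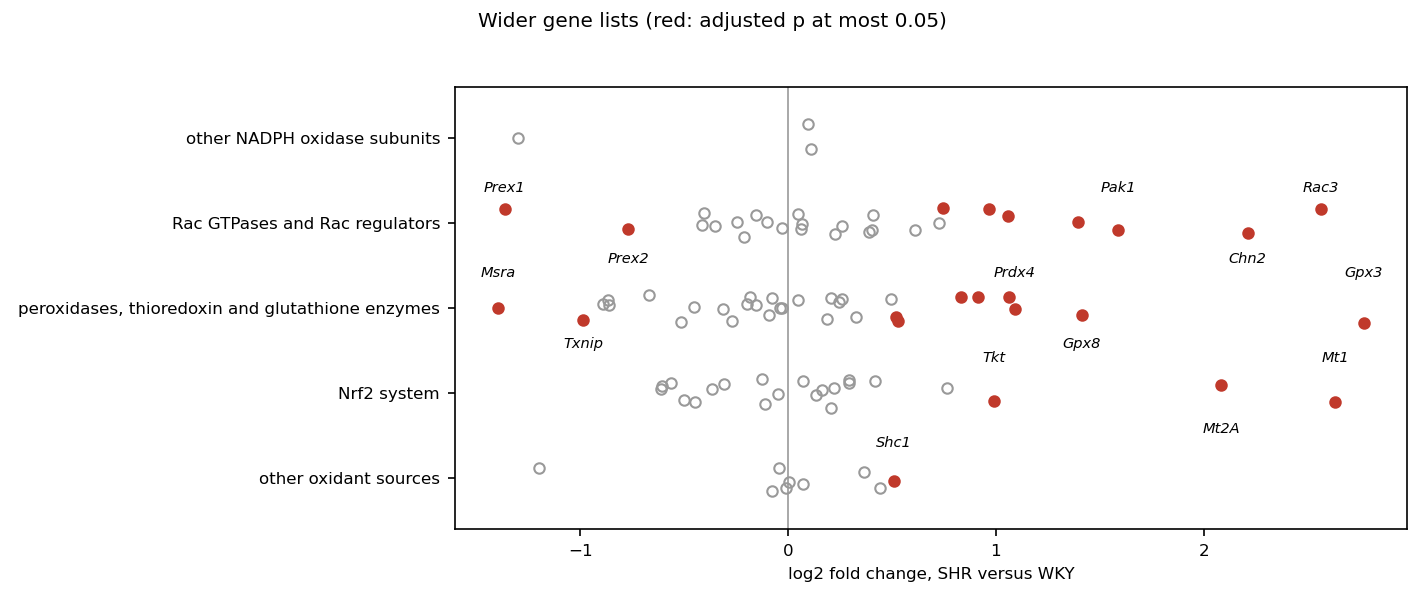
log2 fold changes of SHR over WKY (horizontal axis) of the 93 tested genes in 5 wider lists (rows, with points spread vertically for legibility), in red where the adjusted p was at most 0.05. The peroxidase list runs from -1.40 (Msra) to 2.77 (Gpx3), and the other NADPH oxidase subunits have no red point.

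Of the Rac GTPases and their regulators, 27 were tested, and 7 were higher and 2 lower in SHR (33.3%, beside 20.6% of all genes). Rac3, a close relative of Rac1, was higher in SHR by 2.56 ± 0.31 on the log2 scale (adjusted p = 0.0058), at 14.5, 8.97 and 8.16 CPM against 1.76, 1.86 and 1.25 CPM in WKY. In ARNI replicate 2 it was at 0.774 CPM, below WKY, and in the other treated libraries at 7.69 to 17.9 CPM. Chn2, whose product turns Rac off, was higher by 2.21 ± 0.45 (adjusted p = 0.0216), and Pak1, a kinase that GTP-bound Rac activates, by 1.59 ± 0.36 (adjusted p = 0.0281). ARNI replicate 2 held Pak1 at 1.34 CPM, within the WKY range of 1.28 to 2.17 CPM. Its Chn2, at 2.91 CPM, lay above the WKY range of 0.622 to 1.91 CPM. Prex1 and Prex2, exchange factors that load Rac with GTP, were lower (-1.36 ± 0.34 and -0.77 ± 0.19, adjusted p = 0.0364 and 0.0341). Prex1 stood at 39.9 to 51.2 CPM in WKY, 13.0 to 30.5 CPM in SHR and 41.0 CPM in ARNI replicate 2, again beside the WKY values. Prex2 in ARNI replicate 2 was at 40.2 CPM, just below the 40.8 to 46.5 CPM of WKY.

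The enzymes that remove peroxides or restore thiols had 8 genes higher and 2 lower in SHR of 32 tested (31.2%, beside 20.6% of all genes). Gpx3, the secreted glutathione peroxidase, was at 286, 242 and 335 CPM in WKY and at 3000, 1421 and 2075 CPM in SHR (log2 fold change 2.77 ± 0.30, adjusted p = 0.00461), and ARNI replicate 2 was at 334 CPM, within the WKY range. Gpx8 and Prdx4, peroxidases of the endoplasmic reticulum, were higher by 1.41 ± 0.30 and 1.09 ± 0.20 (adjusted p = 0.0247 and 0.0164). In ARNI replicate 2 they were at 6.71 and 11.95 CPM, within the WKY ranges of 5.51 to 9.51 and 9.51 to 12.8 CPM. Msra, which repairs oxidised methionine, was at 12.4 to 15.3 CPM in WKY and at 5.20 to 6.02 CPM in SHR (-1.40 ± 0.14, adjusted p = 0.00412), and at 8.73 CPM in ARNI replicate 2 it stayed below every WKY library. Txnip, the inhibitor of thioredoxin, was lower by -0.99 ± 0.23 (adjusted p = 0.0296). Txn2, the mitochondrial thioredoxin, was at 68.5 to 103.5 CPM in WKY and at 182 to 247 CPM in all 9 libraries of hypertensive rats, ARNI replicate 2 included.

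Among 22 tested genes of the Nrf2 system, which switches on antioxidant genes, 3 were higher and none lower in SHR. That share, 13.6%, was below the 20.6% of all genes. They were the metallothioneins Mt1 (2.63 ± 0.33, adjusted p = 0.00662) and Mt2A (2.08 ± 0.39, adjusted p = 0.0185), small proteins that bind metals, and Tkt, a transketolase of the pentose phosphate pathway (0.99 ± 0.25, adjusted p = 0.0374). Mt1 stood at 37.2, 45.2 and 39.1 CPM in SHR and at 3.22 to 8.78 CPM in WKY. In ARNI replicate 2 Mt1 was at 16.8 CPM, above WKY. Mt2A was at 2.12 CPM in that library, within the WKY range of 1.565 to 2.81 CPM. Tkt was at 39.4 CPM there, below the 47.0 to 47.8 CPM of WKY. In the list of other oxidant sources, 1 of 9 tested passed (11.1%), the adaptor gene Shc1 (0.51 ± 0.14, adjusted p = 0.0445). Shc1 in ARNI replicate 2 was at 47.6 CPM, below the 50.8 to 55.5 CPM of WKY.

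Over the 12 libraries, each gene was set beside the genes of most similar pattern by Pearson's r of log2 CPM, as a description without a test. The libraries separate by chamber markers, which r does not account for, and the part of that in r was not tested. For Ncf1 the 3 closest were Acsl6, Coq3 and Nkain1 (r = 0.997, 0.993 and 0.992), and for Sod2 they were Phyh, Hsd17b4 and Myzap (0.995, 0.993 and 0.993). For Cat they included Phkb and Mtcl1 (0.980 and 0.963), and for Sod1 they were Mrps33, Ubxn6 and Hddc3 (0.973, 0.969 and 0.955). Cybb was closest to C1s, C1r and Gpnmb (0.962, 0.945 and 0.938), Cyba to Fxyd2, Elovl1 and Spi1 (0.951, 0.949 and 0.948), and Ncf4 to Nlrp3, Pip4k2a and Fads1 (0.920, 0.879 and 0.878). Rac1 was closest to Fmc1, Rsl24d1 and Ran (0.952, 0.945 and 0.943), Sod3 to Evc, Slc2a9 and Numbl (0.930, 0.924 and 0.915), and Nox4 to Wdr89, RGD1562726 and Gtse1 (0.875, 0.867 and 0.867). Among the 10 genes themselves, Ncf1 and Sod2 had the highest r (0.987), followed by Sod2 and Cat (0.880) and Ncf1 and Cat (0.823), and Cybb and Sod1 the lowest (-0.645).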

How the data were processed

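RNA of a portion of the left atrium of 12 rats was sequenced on a BGISEQ-500 with 50-base single-end reads. Per the labels and the paper's methods, reads were cleaned with SOAPnuke and mapped with HISAT2 2.0.4 and Bowtie2 2.2.5 by the authors, who (build Rnor_6.0 in the submitters' processing notes) deposited estimated counts per gene from RSEM, not normalized, of which 23.6% were not whole. Reads shared between similar genes are split by that estimate. The deposited table also holds the authors' own log2 ratio and p-value for SHR over WKY, which were not used.

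The estimated counts were rounded, filtered with filterByExpr, scaled by TMM and compared pairwise with edgeR 4.0.16 (glmQLFTest, R 4.3.3). Standard errors are from the F statistic, and ± marks SE after a log2 fold change. DESeq2 1.42.0 was an alternative. The test was checked on simulated counts. CPM used all counts of a library, and a gene without reads could stand at up to 0.190 to 0.267 CPM (3 reads, counting error only). Levels were not compared between genes, since no lengths were given. No pair was a repeat of the other. The members and lists were chosen with earlier results of these data known. Named genes are all 10 members, at most 3 per list and direction with the largest passing changes, and the 3 most similar genes per member (1 of those of Cat is not reported here); Txn2, the libraries' marker genes and the genes in the last section were named after their values were seen.

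Replicate numbers are shared between groups. In ARNI versus SHR the deviations of same-numbered libraries correlated at 0.185 to 0.509. The numbers may pair libraries there, but this rests on those correlations and not on the design. Differently numbered libraries with ventricular markers correlated at 0.512 (ARB replicate 3 with SHR replicate 2) and 0.585 (ARNI replicate 2 with ARB replicate 3). Shared chamber markers and pairing by number cannot be told apart in such values. All values are from the test without the replicate block, as in the study, unless the block is named. Sequences are RefSeq's (GRCr8). Python 3.11.15 with pandas 2.3.3, numpy 2.4.6 and matplotlib 3.10.9 was used.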

Additional observations from a re-analysis of the deposited data

How the results depend on the processing

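Of the 10 genes, 1 passed between SHR and WKY with edgeR. The count was 3 with DESeq2 (Sod2, Ncf1 and Cat), 2 with library totals alone, 0 with the study's fold threshold, 0 with all 12 libraries in 1 fit, 0 with the chamber score added to that fit, 0 with the replicate block, and 0 to 3 when 1 library was left out. In fits chosen after seeing the data it was 3 with all 9 libraries of hypertensive rats against WKY and 0 with the chamber score as well. It was 1 when ARNI replicate 2 was also left out. That gene was Ncf1, higher in hypertensive rats (edgeR log2 fold change 3.20, adjusted p = 0.00574), against -2.44 in SHR versus WKY. Scores of the hypertensive rats then began at 1.89, beside at most -9.28 in WKY, so this value is an extrapolation. In the 3 drug comparisons 0 of the 10 genes passed under every alternative, the replicate block in ARNI versus SHR, where numbers may pair, included.

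In SHR versus WKY, library totals alone moved the median over all genes from 0.01 to 0.15 (log2) and turned Rac1 to 0.08, Cyba to 0.06 and Ncf4 to 0.07. The chamber score in the fit of 12 libraries turned Rac1 to 0.09, Nox4 to -0.28, Cyba to 0.39, Ncf1 to 1.42 and Sod2 to 0.17. With all 9 libraries of hypertensive rats Nox4 was -0.50, Cyba 0.11 and Ncf4 0.19. With the chamber score there Rac1 was 0.11, Nox4 -0.90, Cyba 0.53, Ncf1 1.35 and Sod2 0.15, and without ARNI replicate 2 as well they were 0.13, -1.22, 1.21, 3.20 and 0.60, with Ncf4 at 0.79. Leaving out 1 library gave ranges of -0.48 to 0.49 for Nox4, -0.29 to 0.13 for Ncf4 and -0.23 to 0.69 for Sod3. The causes were not tested. Of 278 recomputed values for 19 named fold changes, 236 kept their direction and side of the threshold and 26 turned. Sod1, Cybb and Cat turned in none. In the other comparisons, where same-numbered libraries correlated from -0.445 to 0.516, the numbers are names only. In SHR versus WKY the replicate block moved the calls from 2837 to 1030 among all genes and from 23 to 8 among the wider lists, and Chn2, Pak1, Prex1, Prex2, Gpx8, Prdx4, Txnip, Mt2A, Tkt and Shc1 were not called there. Few reads limit Nox4, Cybb, Ncf4 and Duox1.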

Other observations

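Txnip, the thioredoxin inhibitor, was noticed after its values were seen. It stood at 1044, 1006 and 935 CPM in WKY, 442, 711 and 488 CPM in SHR, 478, 431 and 466 CPM in ARB, and 780.1, 1064 and 1012 CPM in ARNI. The ARNI replicates lay above all ARB and all SHR replicates, including ARNI replicates 1 and 3, whose chamber markers were mainly atrial. In ARNI versus ARB the log2 fold change was 1.12 ± 0.23 (adjusted p = 0.993 with edgeR and 0.00154 with DESeq2), and it ran from 0.93 to 1.26 over the alternatives, with adjusted p-values of 0.00154 to 1. In ARNI versus SHR it was 0.88 ± 0.29 (adjusted p = 0.999 with edgeR and 1 with DESeq2).

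Hmox1, the inducible heme oxygenase of the Nrf2 list, overlapped between WKY (11.1 to 13.4 CPM) and the 9 libraries of hypertensive rats (2.65 to 26.4 CPM), with ARNI replicate 2 the highest. Its log2 difference was 0.04 ± 0.59 without the chamber score (adjusted p = 0.965) and 2.23 ± 0.46 with it (adjusted p = 0.0441). Txn2 was higher in hypertensive rats in both fits, by 1.14 ± 0.17 (adjusted p = 0.00368) and 1.42 ± 0.24 (adjusted p = 0.0252). With the chamber score these were 2 of the 94 list genes tested (2.13%), against 1.99% of all genes. Neither Hmox1 nor Txn2 was called in the fit with the chamber score when ARNI replicate 2 was also left out.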
